A study of Mus musculus with 9 samples.

Results

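The genes described here encode the machinery that brings proteins into mitochondria. They were taken by name, as every symbol of the count table that begins with Tomm or Timm followed by a digit, which gave 24 of 26683 rows. The 10 Tomm rows are named for the translocase of the outer membrane and the 14 Timm rows for translocases of the inner membrane. Of these, 9 Tomm and 13 Timm rows had enough counts to enter the test, 22 in all, while Tomm6 and Timm8a2 did not.

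RNA was sequenced from regulatory T cells (Treg cells) of the spleen, isolated as CD4+Foxp3+ cells. Foxp3 encodes the transcription factor that defines this cell type. The 4 KO libraries came from EsrrgNf/f.Foxp3YFP-Cre females, in which Cre recombinase can delete a floxed part of Esrrg, and the 5 WT libraries from B6N.Foxp3YFP-Cre females with the same Cre allele. Each library was made from 1 mouse aged 2 to 3 months, and Cre is driven by Foxp3 in both groups. The strain names differ between the groups, so strain and genotype cannot be told apart. The floxed gene encodes a nuclear receptor of the estrogen-related family, which is known to act on nuclear genes for mitochondrial proteins.

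Nearly all mitochondrial proteins are made in the cytosol and pass through the TOM complex of the outer membrane, where receptors (Tom20, Tom22, Tom70) hand precursors to the Tom40 pore. Precursors with an N-terminal targeting signal then enter the matrix through the TIM23 complex, pulled by a motor that Tim44 anchors. Metabolite carriers are escorted across the intermembrane space by small Tim chaperones and inserted by the TIM22 complex.

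The libraries held 15386929 to 17425634 counts in KO and 15269014 to 16874301 in WT. Esrrg had 0 counts in all 9 libraries, which allows up to 0.0206 CPM (a gene's counts scaled to a common library total) over all of them, so its loss could not be checked. Xist had 27 counts in the library labelled KO 4 and 27355 to 35693 in each of the others, although every mouse is labelled female. KO 4 had 2 counts over 4 Y-linked genes, and WT 2 had 23. All 6 Treg markers (Foxp3, Il2ra, Ctla4, Ikzf2, Cd4 and Cd3e) were detected in every library, with a summed level of 4082 to 4440 CPM in KO and 4177 to 4411 CPM in WT. The 6 B and plasma cell markers were also detected in every library and summed to 142.8, 33.1, 55.4 and 492.3 CPM in KO 1 to KO 4, against 16.5 to 69.4 CPM in WT. The 4 macrophage markers summed to 17.2 to 90.9 CPM in KO and 12.9 to 53.9 CPM in WT, and the 4 neutrophil markers to 0.127 to 15.6 CPM and 0.303 to 2.03 CPM, with Ly6g at 0 in KO 2, KO 3, KO 4 and WT 3. The 4 CD8 T and NK cell markers summed to 16.7 to 19.1 CPM in KO and 14.9 to 18.4 CPM in WT, and 2 hemoglobin genes to 1.46 to 15.2 CPM and 2.36 to 12.9 CPM. KO 1 and KO 4 were the highest libraries in the B and plasma cell, macrophage and neutrophil sums, and some of the results below are also given without them. In bulk RNA, fewer cells of a type and less RNA per cell cannot be told apart.

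Of the 22 tested import genes, 1 rose in KO Treg cells. This was Tomm22, the central receptor of the TOM complex, which was 1.15-fold higher. By the same test 0 fell. The other 21 missed the threshold, an adjusted p of 0.05 by edgeR's quasi-likelihood test over all 12738 tested genes, at which 3.28% of all genes were called, 1.4% as higher in KO and 1.88% as lower. A share of 4.55% of the members is 1 gene and is near that background. At an unadjusted p under 0.05 there were 3 members, Tomm22, Tomm40 and Timm13, all higher in KO, while 21.6% of all tested genes passed that mark.

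The promoter of Tomm22 is shown because this gene alone was called. The 250 bases before its RefSeq start (GRCm38.p6, chr15:79670618-79670867, plus strand) are printed 5′ to 3′, with matches to the ETS motif CCGGAAG in capitals. The motif occurs on both strands there, and the matches overlap.

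Tomm22: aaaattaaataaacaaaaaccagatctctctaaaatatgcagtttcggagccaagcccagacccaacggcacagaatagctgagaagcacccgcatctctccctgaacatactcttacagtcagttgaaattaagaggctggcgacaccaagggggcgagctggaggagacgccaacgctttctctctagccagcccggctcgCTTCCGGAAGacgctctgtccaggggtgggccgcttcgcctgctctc

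The ETS matches begin 47 and 44 bases before the start. No match to TCAAGGTCA, the element that estrogen-related receptors bind, was found in these letters.

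Tomm22 had 76.6, 77.0, 74.3 and 76.9 CPM in KO 1 to KO 4, against 66.8, 66.6, 65.2, 69.0 and 63.99 CPM in WT 1 to WT 5. Every KO library lay above every WT library, and the ranges did not overlap, which held for 9.1% of all tested genes. The gene (chromosome 15, 79670861 to 79673400, plus strand in the GENCODE M21 annotation of GRCm38) overlaps no other annotated gene, and no other annotated transcript matched it at 95% identity over 100 bases or more. It averaged 76.2 ± 1.26 CPM in KO (SD, n = 4) and 66.3 ± 1.89 CPM in WT (SD, n = 5). The log2 fold change, KO over WT, was 0.20 ± 0.039 (SE, edgeR adjusted p = 0.0205). Each library held 1015 to 1335 counts of Tomm22.

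The size of the Tomm22 difference was steadier than its call. Without 1 library at a time the log2 fold change ran from 0.18 to 0.21, and 6 of 9 such fits kept the call. The call ended without KO 4 (edgeR adjusted p = 0.0644), without WT 3 (0.0701) and without WT 5 (0.0613). Without KO 1 and KO 4 together the log2 fold change was 0.20 with an adjusted p of 0.0914, and without WT 1 as well 0.21 with 0.0654.

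**Figure D1:**
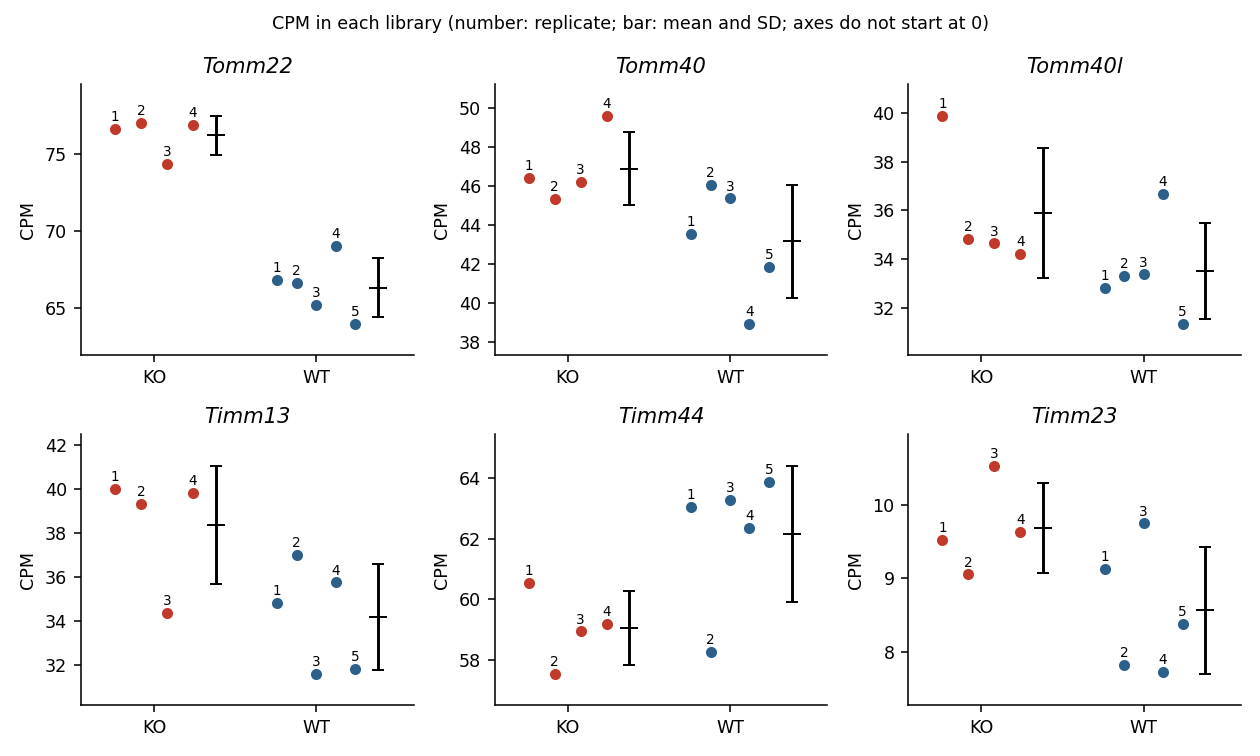
CPM of 6 import genes in each of 4 KO and 5 WT libraries, with the replicate number above each point and the mean and SD at the side. For Tomm22 the lowest KO library (74.3 CPM) lies above the highest WT library (69.0 CPM), whereas the groups overlap for the other genes.

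The other outer membrane receptors did not pass the test. Tomm70a, which encodes the receptor for carrier precursors and for cargo held by cytosolic chaperones, had 121.7, 111.6, 118.6 and 121.8 CPM in KO 1 to KO 4, against 112.5 to 118.2 CPM in WT (median 117.8). Its log2 fold change was 0.023 ± 0.036 (SE, edgeR adjusted p = 0.752), and its sign turned without KO 1 and KO 4 (-0.0048) and without these and WT 1 (-0.0011). KO 2 was the lowest library and KO 4 the highest. Tomm20, the receptor for N-terminal targeting signals, had 42.5, 38.9, 40.7 and 38.8 CPM in KO 1 to KO 4, against 44.3, 42.2, 41.4, 42.4 and 38.8 CPM in WT 1 to WT 5. Its log2 fold change was -0.058 ± 0.054 (adjusted p = 0.565). Tomm20 and Tomm22 act side by side in precursor binding, and their log2 fold changes lay on opposite sides of 0, but the difference between the genes was not tested.

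The pore genes were slightly higher on average in KO without passing. Tomm40, which encodes the channel (chromosome 7, 19701313 to 19715438, minus strand), had 46.4, 45.3, 46.2 and 49.6 CPM in KO 1 to KO 4, against 43.6, 46.1, 45.4, 38.9 and 41.9 CPM in WT 1 to WT 5. KO 1, KO 3 and KO 4 lay above all WT libraries, and KO 2 lay below WT 2 and WT 3. The log2 fold change was 0.12 ± 0.054 (SE, edgeR adjusted p = 0.228), and 0.097 without KO 1 and KO 4 (adjusted p = 0.585). Its exons share 258 bases with the antisense gene Gm20512, which had 3 counts over all libraries. Tomm40l, a close relative of Tomm40, had 39.9, 34.8, 34.6 and 34.2 CPM in KO 1 to KO 4, against 32.8, 33.3, 33.4, 36.7 and 31.3 CPM in WT 1 to WT 5, and KO 1 alone lay above WT 4. Its log2 fold change was 0.099 ± 0.062 (adjusted p = 0.373). Of the Tomm40l transcript 68.9% is shared with exons of Nr1i3 on the opposite strand, which had 1 count over all 9 libraries.

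The small subunits that steady the TOM complex did not pass the test either. Tomm7 had 51.6, 49.9, 45.4 and 50.6 CPM in KO 1 to KO 4, against 49.3, 53.5, 44.9, 47.5 and 45.2 CPM in WT 1 to WT 5, a log2 fold change of 0.037 ± 0.061 (edgeR adjusted p = 0.764). The sign of Tomm7 turned without KO 1 and KO 4 (-0.00074). Tomm5 averaged 11.5 ± 1.19 CPM in KO (SD, n = 4) and 11.6 ± 1.18 CPM in WT (SD, n = 5), and its log2 fold change of -0.010 ± 0.10 (SE, adjusted p = 0.964) changed sign in 5 of 21 other settings. Tomm6 had 2 to 5 counts in KO and 1 to 7 counts in WT, and it was not tested. Its annotated transcript shares 87.6% of its bases with another gene model, Gm21981, so its count is uncertain.

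A pair of Tomm rows are not subunits of the complex. Tomm34 encodes a cytosolic protein that works with Hsp70 and Hsp90 family chaperones on precursors. It had 117.2, 126.8, 123.4 and 120.0 CPM in KO 1 to KO 4, against 117.2, 108.6, 117.0, 118.6 and 124.3 CPM in WT 1 to WT 5, and WT 5 lay above KO 1, KO 3 and KO 4. The log2 fold change was 0.057 ± 0.046 (SE, edgeR adjusted p = 0.499). Tomm6os is an antisense transcript at the Tomm6 locus, with 0.631, 0.316, 0.650 and 0.869 CPM in KO 1 to KO 4, against 0.415, 0.364, 0.365, 0.524 and 0.693 CPM in WT 1 to WT 5, from 5 to 14 counts a library. The groups overlapped, and the log2 fold change was 0.38 ± 0.34 (adjusted p = 0.539). Its counts are uncertain, since 3 other genes share its sequence and it is not known here whether counting used strand.

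None of the 5 genes of the TIM23 translocase was called by edgeR or DESeq2, and 0 had an unadjusted p under 0.05. Timm23, the channel gene, had 9.53, 9.05, 10.5 and 9.625 CPM in KO 1 to KO 4, against 9.13, 7.83, 9.74, 7.73 and 8.385 CPM in WT 1 to WT 5, and WT 3 lay above KO 1, KO 2 and KO 4. Its log2 fold change was 0.18 ± 0.10 (SE, edgeR adjusted p = 0.325). The Timm23 count is uncertain, because 95.6% of its transcript matched 6 other genes at 95% identity or more, 5 of them pseudogenes. Timm50, which encodes the receptor that takes precursors from TOM, had 30.8, 29.4, 29.9 and 32.7 CPM in KO 1 to KO 4, against 28.9, 30.9, 27.2, 28.9 and 28.1 CPM in WT 1 to WT 5. KO 4 alone lay above WT 2, and the log2 fold change was 0.090 ± 0.053 (adjusted p = 0.343). Timm21, which links TIM23 to TOM and to the respiratory chain, had 21.5, 21.2, 22.6 and 21.7 CPM in KO, within the WT range of 20.03 to 26.3 CPM (log2 fold change -0.048 ± 0.073, adjusted p = 0.743), and its sign turned without WT 3.

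Timm17a and Timm17b encode alternative forms of a further TIM23 subunit. Timm17a had 28.4, 27.9, 26.4 and 27.1 CPM in KO 1 to KO 4, against 29.0, 26.8, 26.7, 28.4 and 24.8 CPM in WT 1 to WT 5. Timm17b had 31.6, 28.04, 29.6 and 32.0 CPM in KO 1 to KO 4, against 30.6, 31.8, 27.6, 27.6 and 30.1 CPM in WT 1 to WT 5, and the groups overlapped for both genes. Their log2 fold changes were 0.014 ± 0.059 and 0.037 ± 0.060 (SE, edgeR adjusted p = 0.917 and 0.764), both with sign changes in 2 of 21 other settings. Per kilobase of annotated exon, the level of Timm17a was 0.294 ± 0.0198 times that of Timm17b in KO (SD, n = 4) and 0.299 ± 0.0277 times in WT (SD, n = 5). The balance of the 2 forms thus moved by less than the spread between libraries.

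Timm44, which anchors the Hsp70 motor at the inner face of the channel (chromosome 8, 4259731 to 4275913, minus strand), was the member with the most negative fold change. It had 60.5, 57.5, 58.9 and 59.2 CPM in KO 1 to KO 4, against 63.1, 58.3, 63.3, 62.3 and 63.9 CPM in WT 1 to WT 5. All KO libraries lay below WT 1, WT 3, WT 4 and WT 5, and WT 2 lay among them. The log2 fold change was -0.074 ± 0.041 (SE, edgeR adjusted p = 0.311), and it was negative in all 21 other settings.

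Timm22, the pore gene of the carrier translocase, had 18.5, 16.4, 17.03 and 18.6 CPM in KO 1 to KO 4, against 15.9, 17.2, 17.1, 15.8 and 16.6 CPM in WT 1 to WT 5. KO 1 and KO 4 lay above all WT libraries, while KO 2 and KO 3 lay within the WT range. The log2 fold change was 0.095 ± 0.064 (SE, edgeR adjusted p = 0.412), 0.029 without KO 1 and KO 4, and 0.020 without KO 1, KO 4 and WT 1. Timm29, another TIM22 subunit that the name rule missed, stands in the table under its older symbol 1810026J23Rik. It averaged 46.7 ± 3.23 CPM in KO (SD, n = 4) and 49.0 ± 1.63 CPM in WT (SD, n = 5), with a log2 fold change of -0.068 (adjusted p = 0.524).

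The small Tim chaperones, of which 6 of 7 were tested, gave no call by edgeR or DESeq2, and 1 had an unadjusted p under 0.05. Timm13, which pairs with Timm8 proteins in the intermembrane space (chromosome 10, 80899450 to 80900969, minus strand), had 40.0, 39.3, 34.4 and 39.8 CPM in KO 1 to KO 4, against 34.8, 37.0, 31.6, 35.8 and 31.8 CPM in WT 1 to WT 5. KO 1, KO 2 and KO 4 lay above all WT libraries, and KO 3 lay among them. The log2 fold change was 0.16 ± 0.066 (SE, edgeR adjusted p = 0.172), the smallest p of the Timm rows. Without KO 1 and KO 4 it was 0.12 (adjusted p = 0.565). Timm8b, a partner of Timm13, had 16.2, 14.4, 14.6 and 14.4 CPM in KO 1 to KO 4, against 14.3, 15.7, 12.4, 13.5 and 13.7 CPM in WT 1 to WT 5, and KO 1 alone lay above WT 2 (log2 fold change 0.098 ± 0.084, adjusted p = 0.522). Timm8a1, whose human counterpart is mutated in a deafness and dystonia syndrome, had 1.61, 1.27, 1.04 and 1.49 CPM in KO 1 to KO 4, against 0.889, 1.21, 1.04, 1.31 and 1.13 CPM in WT 1 to WT 5, from 15 to 28 counts a library. The groups overlapped (0.28 ± 0.22, adjusted p = 0.481). Its sign turned without KO 1, KO 4 and WT 1. The Timm8a1 count is uncertain, because 43.1% of its transcript matched the pseudogene Gm9797 at 95% identity or more. Timm8a2, with 5, 2, 3 and 4 counts in KO 1 to KO 4, against 9, 4, 6, 3 and 6 counts in WT 1 to WT 5, was not tested.

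Timm9 and Timm10 form the ring that escorts carriers, and Timm10b docks it on TIM22. Timm9 had 11.4, 12.4, 11.6 and 13.5 CPM in KO 1 to KO 4, against 10.1 to 14.5 CPM in WT, and Timm10 had 7.17, 7.22, 8.45 and 8.82 CPM in KO 1 to KO 4, against 6.64, 9.04, 9.07, 8.25 and 7.25 CPM in WT 1 to WT 5. KO values lay within the WT range for both genes, and their log2 fold changes of -0.022 ± 0.10 and -0.025 ± 0.12 (SE, edgeR adjusted p = 0.925 and 0.927) changed sign in 3 and 5 of 21 other settings. Timm10b varied widely in WT, with a coefficient of variation of 7.79% in KO and 26.5% in WT. It had 7.58, 8.42, 8.97 and 7.76 CPM in KO 1 to KO 4, against 4.74, 6.68, 9.13, 9.82 and 8.45 CPM in WT 1 to WT 5. Its log2 fold change of 0.079 ± 0.18 (adjusted p = 0.833) turned to -0.053 without WT 1, the lowest library. Its exons overlap those of Arfip2 and Gm45799.

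**Figure D2:**
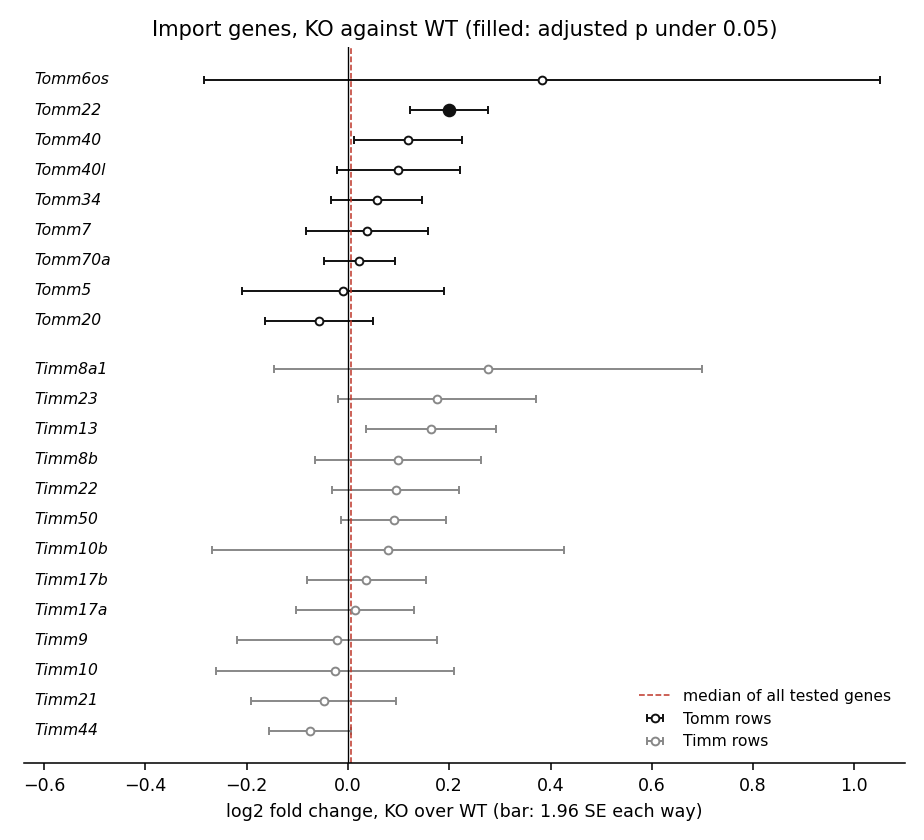
Log2 fold change, KO over WT, of the 22 tested import genes from edgeR's fit over all genes. Bars are an approximate 95% interval, a normal multiple of the SE, and are narrower than the test itself would give. Tomm22 at 0.20 is the filled point, and the dashed line marks the median of all 12738 tested genes, 0.0052.

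Tomm and Timm rows leaned the same way by small amounts. Fold changes were positive for 7 of 9 tested Tomm rows (median log2 0.057) and for 9 of 13 tested Timm rows (median log2 0.079). The 9 Tomm rows include Tomm34 (0.057, itself the median) and Tomm6os (0.38), both positive and neither a TOM subunit. By role, 2 of 3 receptor genes, 2 of 2 pore genes and 1 of 2 tested small subunit genes were positive. Over all tested genes 51.5% were positive and the median was 0.0052. Without KO 1 and KO 4 the medians were 0.046 for Tomm and 0.029 for Timm, and without these and WT 1 they were 0.014 and 0.020. The Timm median was also 0.043 without KO 3. Of 76 tested mitochondrial ribosomal protein genes, taken by name as another class of nuclear mitochondrial genes, 64 were positive, with a median of 0.10. With the trend of fold change with exon length removed, their median was 0.073, beside 0.057 for Tomm and 0.067 for Timm. Of these 2.63% were called, 2 genes, near the 3.28% of all genes, and 0 were without KO 3, KO 4, WT 1, WT 3, WT 4 or WT 5.

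Summed over all Tomm rows, the groups separated, but not once Tomm34, which is no TOM subunit, was left out. The 10 Tomm rows summed to 508, 498, 494 and 504 CPM in KO 1 to KO 4, against 481, 481, 477, 480 and 475 CPM in WT 1 to WT 5. The KO and WT sums did not overlap, nor did they without Tomm22 alone, at 420 to 432 CPM in KO and 411 to 414 CPM in WT. Without Tomm34 they overlapped, at 391.0, 371.1, 370.8 and 384.5 CPM in KO 1 to KO 4, against 363.9, 372.5, 360.2, 360.9 and 351.2 CPM in WT 1 to WT 5, with WT 2 above KO 2 and KO 3. Without Tomm22 and Tomm34 the sums were 294.1 to 314.4 CPM in KO and 287.2 to 305.8 CPM in WT. Tomm22 alone made up 15.2% ± 0.194 of the Tomm sum in KO (SD, n = 4) and 13.9% ± 0.349 in WT (SD, n = 5). By role, the receptors summed to 227.5 to 240.8 CPM in KO and 220.6 to 227.3 CPM in WT, and the pore genes to 80.1 to 86.3 CPM in KO and 73.2 to 79.4 CPM in WT, both without overlap. Without Tomm22 the receptors overlapped, at 150.5 to 164.2 CPM in KO and 154.8 to 160.5 CPM in WT. The small TOM subunits, at 55.6 to 63.2 CPM in KO and 56.4 to 65.7 CPM in WT, overlapped. The 14 Timm rows summed to 285, 273, 274 and 287 CPM in KO 1 to KO 4, against 269, 276, 274, 274 and 272 CPM in WT 1 to WT 5, and here KO 2 and KO 3 lay within the WT range. KO 1 and KO 4, with the highest B and plasma cell, macrophage and neutrophil marker sums, were the highest in both sums. The part of those cells in the sums was not tested.

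The ratio of the Tomm sum to the Timm sum was 1.78, 1.83, 1.80 and 1.76 in KO 1 to KO 4, against 1.79, 1.74, 1.74, 1.75 and 1.75 in WT 1 to WT 5. WT 1 lay above KO 1 and KO 4, so the groups overlapped. On the log2 scale the mean difference, KO minus WT, was 0.031. It was 0.049 without KO 1 and KO 4, and 0.056 without these and WT 1. These ratios include Tomm34, which is no TOM subunit. Tomm34 was higher in KO 2 and KO 3 (126.8 and 123.4 CPM) than in KO 1 and KO 4 (117.2 and 120.0 CPM). Its part in the ratio differences was not tested. No p is given for these sums, because they are scores over the members.

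**Figure D3:**
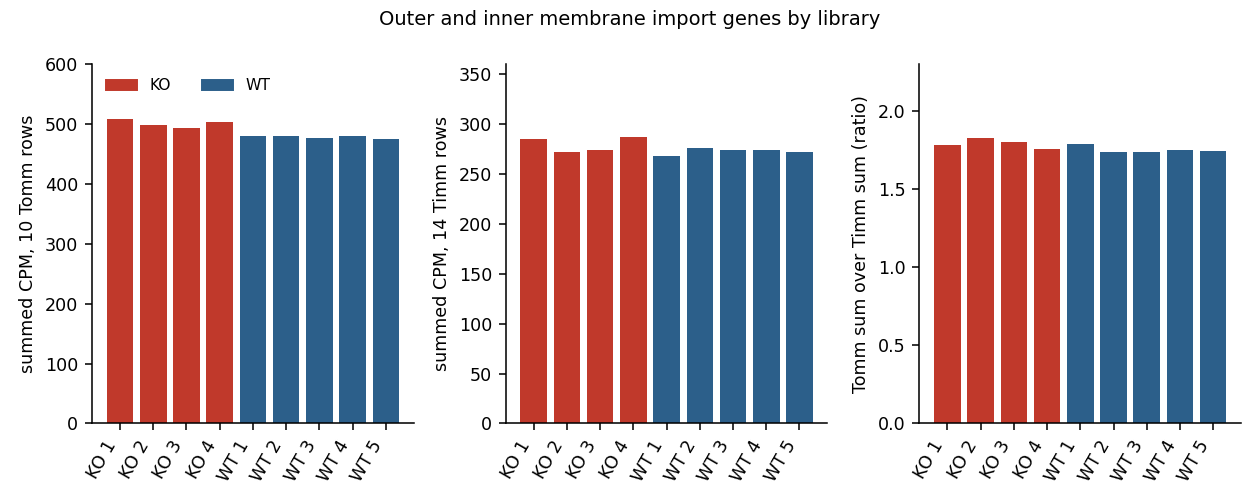
Summed CPM of the 10 Tomm rows, summed CPM of the 14 Timm rows and their ratio, as 1 bar for each of 4 KO and 5 WT libraries. The Tomm sums reach 494 to 508 CPM in KO and 475 to 481 CPM in WT, while the Timm sums and the ratios overlap. The Tomm sums include Tomm34, without which they overlap.

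Within a library, levels of the members spread over more than 2 orders of magnitude per kilobase of annotated exon. Tomm22 was the highest in KO, at 46.2 ± 0.762 CPM per kilobase (SD, n = 4), and second in WT, at 40.2 ± 1.15 (SD, n = 5). Tomm7 had 43.9 ± 2.45 in KO and 42.7 ± 3.12 in WT, and Tomm34 had 40.1 ± 1.38 and 38.5 ± 1.84, and in WT the means of Tomm7 and Tomm22 lay within 1 SD of Tomm7 of each other. Timm8b, at 28.8 ± 1.74 in KO and 26.8 ± 2.29 in WT, and Timm13, at 27.99 ± 1.95 and 25.0 ± 1.75, led the Timm genes and overlapped each other. By the length of the longest transcript Tomm34 was the highest, at 52.9 in KO and 50.9 in WT, with Tomm22 at 48.6 and 42.3. The channel genes were lower, with Tomm40 at 10.4 ± 0.416 in KO and 9.56 ± 0.639 in WT and Timm23 at 5.42 ± 0.345 and 4.79 ± 0.483. The Timm23 level is uncertain, since 95.6% of its transcript matched other genes and reads may have been lost to them. By the longest transcript Tomm40 was at 16.95 in KO and 15.6 in WT, and Timm23 at 8.25 and 7.30. The median over tested members was 9.71 CPM per kilobase in WT. Timm10b (2.28 ± 0.178 and 2.17 ± 0.574), Timm8a1 (0.951 ± 0.177 and 0.786 ± 0.114) and, of the Tomm rows, Tomm40l (6.99 ± 0.521 and 6.52 ± 0.381) and Tomm6os (0.209 ± 0.0773 and 0.160 ± 0.0474) had the lowest levels among tested members of their families, given for KO and then WT. The untested Tomm6 and Timm8a2 were at 0.189 ± 0.0619 and 0.235 ± 0.0762 in KO, and at 0.218 ± 0.117 and 0.376 ± 0.144 in WT. The level of Timm8b was 30.9 ± 5.34 times that of Timm8a1 in KO and 34.7 ± 5.82 times in WT. The Timm8a1 level is uncertain, since 43.1% of its transcript is shared with the pseudogene Gm9797. Tomm40 was at 1.49 ± 0.134 times the level of Tomm40l in KO and 1.47 ± 0.150 times in WT. The Tomm40l level is uncertain, since 68.9% of its transcript is shared with Nr1i3 exons and it is not known here whether counting used strand. Timm10 was at 4.27 ± 0.518 times the level of Timm10b in KO and 4.79 ± 1.19 times in WT. In each of these pairs the KO and WT ratios overlapped.

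**Figure D4:**
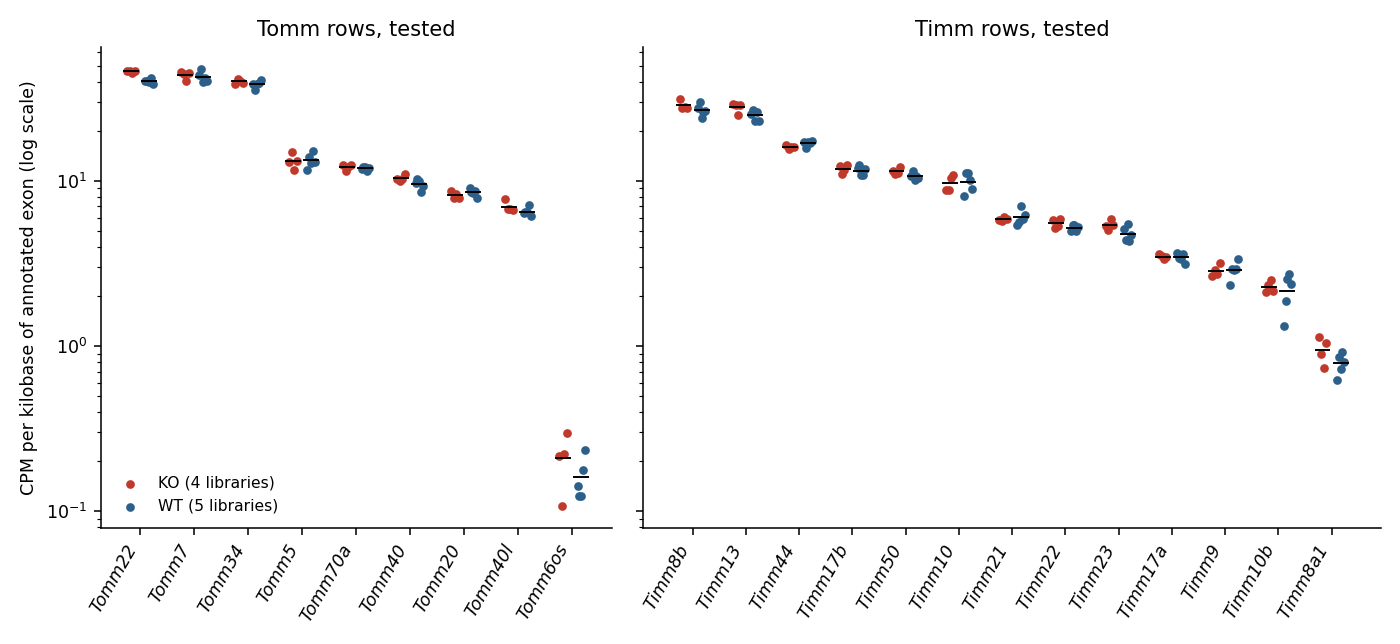
CPM per kilobase of annotated exon, on a log scale, for the 22 tested import genes, with 1 point for each of 4 KO and 5 WT libraries and a line at each mean. Tomm22, Tomm7 and Tomm34 lie near 40 CPM per kilobase, and KO and WT points separate for Tomm22 alone.

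Promoter windows in RefSeq (GRCm38.p6, 250 bases before to 50 after a start) matched 21 of the 24 members by symbol, with 23 windows. Timm21, Tomm40l and Tomm7 had no entry. The ETS motif CCGGAAG, searched on both strands, lay in 9 member windows (39.1%) and in 8.86% of all 32851 windows. These belonged to Timm10, Timm10b, Timm23, Timm8a2, Timm8b, Tomm22, Tomm34 and Tomm70a. The element of estrogen-related receptors, TCAAGGTCA, lay in the window of Timm8b alone, 1 of 23, and in 0.423% of all windows. Its shorter form AAGGTCA, which it contains, lay in 3 windows (Timm23, Timm44 and Timm8b; 13.04% against 4.72% of all). Matches to the NRF1 motif were found in Timm8b and Tomm20 (8.70% against 4.603%) and to the YY1 motif AANATGGCG in Timm44 and Timm50 (8.70% against 2.38%). The site before Timm8b is shown, since Esrrg belongs to the family that binds such elements, with the element in capitals (GRCm38.p6, chr9:50603795-50603824, plus strand). It begins 96 bases before the Timm8b start and overlaps the first exon of Sdhd, a complex II gene on the opposite strand.

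Timm8b: tttcgagggcTCAAGGTCActctacaaccc

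A match is only a match of letters, and binding at the site was not tested. Timm8b was at a log2 fold change of 0.098 that did not pass the test. Tomm22, whose window had no match to this element, was called. A link between the element and the fold changes was not tested.

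Genes listed beside the translocases were described from 7 lists with 57 genes, all tested. Of these, 2 rose and 1 fell, while the median log2 fold change was 0.049 and 38 were positive. The share called, 5.26%, stands beside 3.28% of all tested genes, and 66.7% were positive beside 51.5%. KO and WT ranges did not overlap for 10 of the 57, beside 9.1% of all tested genes. These were 4 cytosolic chaperone, 2 disulfide relay, 2 protease and quality control, 1 sorting and assembly and 1 motor gene. Both genes that rose encode cytosolic Hsp90, which delivers precursors to Tom70. Hsp90aa1 had 155.7, 185.0, 149.3 and 174.7 CPM in KO 1 to KO 4, against 141.5, 141.3, 114.0, 122.3 and 127.2 CPM in WT 1 to WT 5, with every KO library above every WT library. Its log2 fold change was 0.36 ± 0.084 (SE, edgeR adjusted p = 0.0469). Hsp90ab1 had 1752, 1762, 1655 and 1706 CPM in KO 1 to KO 4, against 1505, 1647, 1350, 1421 and 1418 CPM in WT 1 to WT 5. It averaged 1719 ± 49.1 CPM in KO (SD, n = 4) and 1468 ± 114 CPM in WT (SD, n = 5), also with no overlap (0.23 ± 0.055, adjusted p = 0.0460). These were 2 of 11 cytosolic precursor chaperones, whose log2 fold changes ran from -0.12 to 0.44. At an unadjusted edgeR p under 0.05 this list held 5 genes, where 21.6% of all tested genes passed that mark. Besides the Hsp90 genes these were Hspa8 (0.34, adjusted p = 0.063) and Stip1 (0.44, adjusted p = 0.085), both higher in KO, and Ubqln4 (-0.12, adjusted p = 0.185). DESeq2 called 4 genes of this list.

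The gene that fell was Chchd10, a small intermembrane space protein of the kind imported by disulfide trapping. It had 23.1, 23.3, 22.7 and 22.9 CPM in KO 1 to KO 4, against 25.8, 30.6, 27.2, 26.5 and 26.2 CPM in WT 1 to WT 5. All KO libraries lay below all WT libraries, and the log2 fold change was -0.25 ± 0.059 (SE, edgeR adjusted p = 0.0443). It was 1 of 7 genes of the disulfide relay list, in which 0 were called as higher. Fold changes in this list were positive for 5 genes and negative for 2, with a median log2 of 0.13. At an unadjusted edgeR p under 0.05 it held 4 genes, where 21.6% of all tested genes passed that mark. Besides Chchd10 these were Gfer (0.21), Cox19 (0.18) and Chchd2 (0.14), all higher in KO. The calls of Chchd10, Hsp90aa1 and Hsp90ab1 changed with single libraries. Among fits that left out 1 library, Chchd10 passed only without WT 1 (0.0495) or WT 2 (0.0442), Hsp90aa1 only without WT 1 (0.0390) or WT 2 (0.0397), and Hsp90ab1 only without WT 2 (0.0136). In the other fits that left out 1 library the adjusted p was up to 0.124, 0.138 and 0.116 for the 3 genes in that order. Without KO 1 and KO 4 together the log2 fold changes were -0.23, 0.38 and 0.23, with adjusted p of 0.215, 0.192 and 0.186.

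In the other 5 lists 0 genes passed by edgeR, while DESeq2 called 1, in the matrix chaperone list. At an unadjusted p under 0.05 they held 3 sorting and assembly genes, 2 motor genes, 3 protease and quality control genes and 1 matrix chaperone gene. The inner membrane list held 1, Ghitm, whose role in import was not examined here. Of all tested genes, 21.6% passed that mark. Among outer membrane sorting and assembly genes, 0 of 6 passed, with the metaxin genes Mtx1 at -0.18 (edgeR adjusted p = 0.0814) and Mtx3 at -0.20 (adjusted p = 0.105). Mtx1, which takes part in inserting barrel proteins such as Tom40, had 25.5 to 29.5 CPM in KO and 30.8 to 33.2 CPM in WT. These ranges did not overlap, which held for 9.1% of all tested genes. In the import motor, 0 of 8 passed, with the nucleotide exchange factor gene Grpel1 at 0.20 (adjusted p = 0.0803) and the mitochondrial Hsp70 gene Hspa9 at 0.096 (adjusted p = 0.217). Presequence proteases and quality control genes had 0 of 16 past, 10 of them negative, with the presequence-degrading protease gene Pitrm1 at 0.15 (adjusted p = 0.105) and Immp2l at -0.46 (adjusted p = 0.183). Matrix folding chaperones had 0 of 4 past, with the chaperonin genes Hspd1 at 0.24 (adjusted p = 0.0964) and Hspe1 at 0.13 (adjusted p = 0.449). Inner membrane insertion and carrier translocase partners had 0 of 5 past, with Ghitm at 0.11 (adjusted p = 0.152) and Timmdc1, known for complex I assembly, at 0.15 (adjusted p = 0.273).

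**Figure D5:**
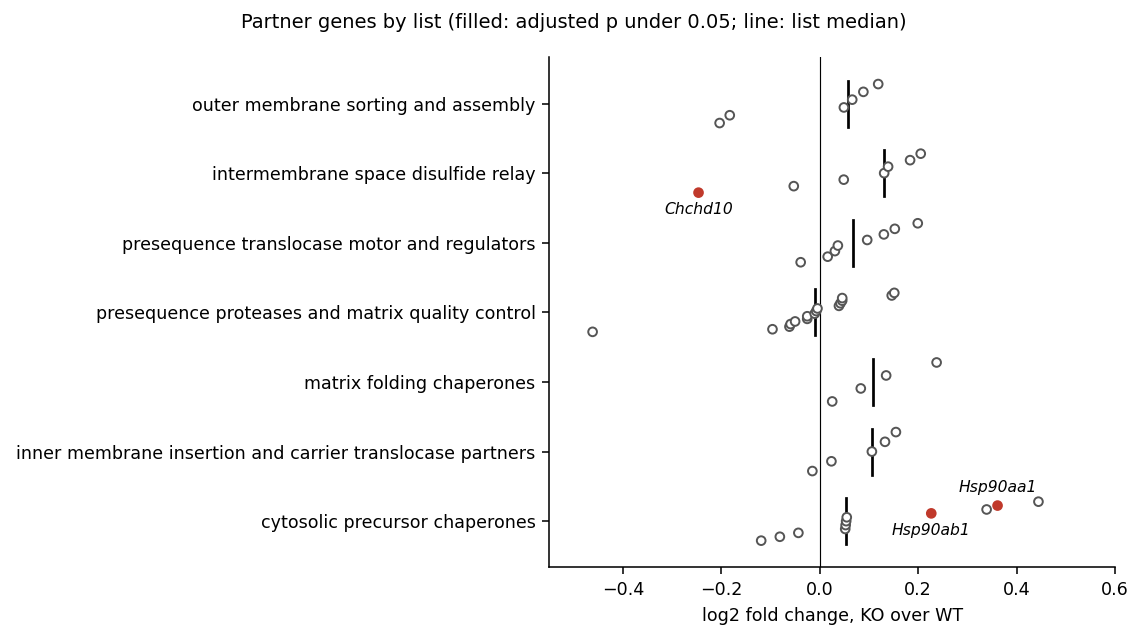
Log2 fold change, KO over WT, of 57 genes in 7 lists set beside the translocases. Each gene is 1 point, filled where the edgeR adjusted p was under 0.05, with a line at each list's median. Hsp90aa1 (0.36), Hsp90ab1 (0.23) and Chchd10 (-0.25) are the filled points.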

How the data were processed

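Unnormalized read counts by gene symbol, 1 column for each of 9 libraries, were deposited by the authors. The kit was a TruSeq stranded one, per the labels' protocols. STAR 2.7, DESeq2 and mm10 appear in the submitters' processing notes without a stated role. The program, annotation and strand rule of the counting were not given in the sources used here. Groups came from the sample titles.

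Tests used edgeR 4.0.16 under R 4.3.3 (quasi-likelihood, robust, trimmed-mean scaling, default expression filter), with Benjamini-Hochberg adjustment over 12738 genes and a threshold of 0.05. SE was derived from the fold change and the F statistic. CPM used total counts. The test was checked on simulated counts. The floor for a count of 0 was 3 counts, for counting error only. Genes were placed on GENCODE M21, and exon length is the union of a gene's exons. No library was a duplicate of another (chi-square per degree of freedom at least 2.34 for every pair). Alternatives were other scalings, filters, DESeq2 1.42.0, limma-voom (limma 3.58.1), replicate blocks, libraries left out, removal of the trend of fold change with exon length (lowess, span 0.3), and longest-transcript lengths. Sums without Tomm34, without Tomm22 and Tomm34, without Tomm34, Tomm6os and the untested members, and of the receptors without Tomm22 were added after seeing the data.

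Members are all rows that match the name rule. Per-library values are given for called members, the 4 Tomm and 6 Timm rows with the smallest p, the 2 highest and 2 lowest of each family per kilobase among tested members, and paralogues. Each partner list is represented by its called genes or the 2 with the smallest p. Lists with called genes are also represented by their other genes with an unadjusted p under 0.05. Members and lists were chosen with earlier results of these data known.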

Additional observations from a re-analysis of the deposited data

Results flagged for a closer look

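Single libraries stood apart from the rest of their group in 5 of 48 groups of member values (24 genes in KO and in WT) by Dixon's test at its 95% critical value, where chance flags about 1 in 20. KO 3 was the lowest KO library for Tomm22, at 74.3 CPM against 76.6 to 77.0 CPM in the other KO libraries, and still lay above every WT library. KO 3 was also the lowest KO library for Timm13, at 34.4 CPM against 39.3 to 40.0 CPM. KO 1 was the highest KO library for Tomm40l, at 39.9 CPM against 34.2 to 34.8 CPM, and for Timm8b, at 16.2 CPM against 14.4 to 14.6 CPM. WT 2 was the lowest WT library for Timm44, at 58.3 CPM against 62.3 to 63.9 CPM in the other WT libraries.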

How the results depend on the processing

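Tomm22 kept its call under 3 other scalings, 2 other filters, DESeq2 and limma-voom, with adjusted p of 0.00201 to 0.0245, and no other member passed in any of 20 other fits. Members called numbered 0 to 1 with 1 library left out (0 without KO 4, WT 3 or WT 5), and 0 without KO 1 and KO 4, 0 without these and WT 1, and 0 with either replicate block. The labels do not say whether the title or bracketed numbers pair the libraries. Same-numbered deviations correlated at -0.0669 to 0.1002 and -0.260 to 0.0990 in that order, and 0 of 4 KO libraries correlated best with its own number. Whether same-numbered libraries shared a litter, day or batch cannot be told from so few correlations. Under a replicate block on the title number Tomm22 had an edgeR adjusted p of 0.183, and 26 genes passed over the whole table. With the bracketed number Tomm22 had 0.0557, and 443 genes passed. WT 5 has no KO library of its title number and WT 2 none of its bracketed number, so each block also takes 1 library out of the comparison. With only that library left out, 117 genes passed without WT 5 and 643 without WT 2. The effect of pairing cannot be told apart from that loss.

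Over all genes, 418 passed, against 95 (without WT 3) to 643 (without WT 2) with 1 library left out, with 182, 120, 133 and 117 without KO 3, KO 4, WT 4 and WT 5, then 118 without KO 1 and KO 4, 250 without these and WT 1, 882 by DESeq2 and 980 at an adjusted p of 0.1. Partner genes called were 3, against 0 to 4 with 1 library left out (0 without KO 3, KO 4, WT 3, WT 4 or WT 5), 1 without a count filter, 6 by DESeq2, 8 at 0.1, 0 without KO 1 and KO 4, 0 without these and WT 1, and 0 and 1 with the title and bracketed replicate blocks. The cause was not tested.

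With 1 library left out, the Tomm median ran from 0.044 to 0.074 and the Timm median from 0.043 to 0.080. The Timm median was 0.029 without KO 1 and KO 4, and 0.020 without WT 1 as well, where the Tomm median was 0.014. With the length trend removed, Tomm22 was at 0.16 and the medians were 0.057 and 0.067. The log2 difference in the Tomm to Timm ratio, KO minus WT and with Tomm34 included, was 0.022 to 0.040 with 1 library left out. It was 0.049 without KO 1 and KO 4 and 0.056 without WT 1 as well. The log2 ratio of the total sum, 0.055, was 0.047 to 0.062 with 1 left out, 0.033 and 0.032 in those settings, and 0.074 as a mean of log2 CPM. With the longest transcript as length, the median level was 12.04 CPM per kilobase.

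Some signs turned. Without KO 1 and KO 4 these were Tomm5 (0.014), Tomm7 (-0.00074), Tomm70a (-0.0048) and Timm17b (-0.022), and without WT 1 as well Tomm70a (-0.0011), Timm17b (-0.0042) and Timm8a1 (-0.0058). Under the title block they were Timm17a (-0.019) and Timm9 (0.038), and under the bracketed block Tomm5 (0.0090) and Timm10 (0.023). With 1 library left out, ranges crossed 0 for Tomm5 (-0.083 to 0.042), Timm10 (-0.083 to 0.023), Timm10b (-0.053 to 0.18), Timm17a (-0.019 to 0.046), Timm21 (-0.082 to 0.011) and Timm9 (-0.084 to 0.036).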

Other observations

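WT 2 held more counts than the other 8 libraries of the processed pseudogenes most like 3 members. Gm14494, a copy of part of Tomm20, had 26 counts in WT 2 and 0 to 5 elsewhere, Gm13450, a copy of part of Tomm7, 17 and 0 to 4, and Gm7180, a copy of part of Timm17a, 15 and 2 to 6. WT 2 also held 23 counts over 4 Y-linked genes, against 0 to 3 in the other libraries. These values were picked after they were seen, and no test was made.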
